A study of Mus musculus with 4 samples.

Results

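The IFIT family, interferon-induced proteins with tetratricopeptide repeats, was taken here as Ifit1, Ifit2, Ifit3 and Ifit3b. The table also held Ifit1bl2, an Ifit1-like gene of the same cluster, which is described separately below. The 4 members, of 12767 gene symbols, were taken by name. These members filled 5 of 25388 transcript rows, because Ifit2 had 2 RefSeq transcripts, and the row with the highest mean level over the libraries stood for a symbol. The family was chosen by its RPKM values in these same libraries, mainly the high levels of Ifit1, Ifit3 and Ifit3b after miR-9-LOF, so its levels and ratios are given as a description. With 1 library per condition no test between conditions was possible.

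Total RNA was sequenced from MLg cells (ATCC CCL-206), a mouse lung fibroblast line labelled wild type, in 4 libraries. All cultures had been transfected with an antagomiR, an antisense oligonucleotide made to inhibit a chosen mature microRNA, using Lipofectamine 2000. The Ctr library received the negative-control antagomiR, the Mir9_LOF library the antagomiR against miR-9-5p (loss of function, here called miR-9-LOF), the Tgfb library the control antagomiR and human recombinant TGFB1 (5 ng/ml), and the Tgfb_Mir9_LOF library the miR-9 antagomiR and TGFB1. The submitters' texts differ on the timing and dose: the treatment protocol states 60 nM antagomiR and a harvest at 24 h with TGFB1 for the last 4 h, the design text 10 nM and 48 h, and this was not settled here. The model is a single cell line, no untransfected cells were among the libraries analysed, and nothing states that the libraries came from separate experiments.

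IFIT genes are scarcely transcribed in resting cells and belong to the first genes switched on when a cell senses foreign RNA or DNA or receives type I interferon. IRF3, activated by the sensors, and ISGF3, a complex that contains STAT2 and IRF9 and forms below the interferon receptor, both bind an interferon-stimulated response element (ISRE) in the promoters of such genes. IFIT1 binds RNA whose cap lacks 2′-O methylation and blocks its translation, IFIT2 restricts several viruses and in human cells forms complexes with IFIT1 and IFIT3, and human IFIT3 stabilises IFIT1. Mice carry Ifit3b as a close copy of Ifit3.

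Reads counted in transcripts summed to between 14718397 (Mir9_LOF) and 27413486 (Ctr) per library, a 1.86-fold range of depth. The transcripts Rn45s, Mir6236 and Lars2 (1 row each) took 18.8% of counted reads in Ctr, 32.7% in Mir9_LOF, 16.0% in Tgfb and 27.4% in Tgfb_Mir9_LOF, so this share was higher in both libraries with the miR-9 antagomiR, in which Ifit1, Ifit3 and Ifit3b were also higher. With these 3 rows left out of the library totals the number of IFIT members called was the same in every comparison. Of 12 fibroblast markers 11 were in the table, all with a mean of 1 RPKM (reads relative to transcript length and library total) or more. Of the epithelial and endothelial markers none reached that level, and their summed levels stayed at 0.495 RPKM or less. Of 9 leukocyte markers Cd14 and Cd68 did, with a summed leukocyte level of 4.87 to 7.11 RPKM, and the pan-leukocyte gene Ptprc was not among the rows analysed.

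The 4 genes lie together in a cluster of 99.46 kb on chromosome 19, chr19:34550550-34650009 in GRCm38.p6, the assembly that mm10 denotes. In order along the chromosome the annotated genes were Ifit2 (chr19:34550550-34576534), Ifit3 (chr19:34583119-34588982), Ifit1bl1, Ifit3b (chr19:34607530-34613403), Ifit1bl2 (chr19:34617046-34640827) and Ifit1 (chr19:34640889-34650009). The 4 members are transcribed from the + strand and the 2 Ifit1-like genes from the - strand. The expression of Ifit1bl1 was not analysed here.

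The promoter windows of the members are shown as a description, with the levels of the members already known. Whether the windows relate to these levels was not tested. Each window runs from 250 bases before to 50 bases after a transcript start (RefSeq, GRCm38.p6), and capitals mark matches to the ISRE core (GAAA, any 2 bases, GAAA) on either strand.
Ifit1, chr19:34640639-34640938, + strand: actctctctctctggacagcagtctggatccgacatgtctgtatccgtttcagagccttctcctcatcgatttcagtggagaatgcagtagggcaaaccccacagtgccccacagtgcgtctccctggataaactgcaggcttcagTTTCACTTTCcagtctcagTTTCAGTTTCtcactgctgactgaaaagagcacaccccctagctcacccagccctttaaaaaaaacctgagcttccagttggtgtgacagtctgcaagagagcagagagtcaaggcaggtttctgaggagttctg
Ifit3, chr19:34583279-34583578, + strand: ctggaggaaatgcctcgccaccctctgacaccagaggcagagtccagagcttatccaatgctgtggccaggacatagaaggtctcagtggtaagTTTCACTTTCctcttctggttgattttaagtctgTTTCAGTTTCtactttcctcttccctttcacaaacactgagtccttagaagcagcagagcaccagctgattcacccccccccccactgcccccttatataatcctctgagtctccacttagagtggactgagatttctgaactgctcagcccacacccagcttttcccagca
Ifit3b, chr19:34607707-34608006, + strand: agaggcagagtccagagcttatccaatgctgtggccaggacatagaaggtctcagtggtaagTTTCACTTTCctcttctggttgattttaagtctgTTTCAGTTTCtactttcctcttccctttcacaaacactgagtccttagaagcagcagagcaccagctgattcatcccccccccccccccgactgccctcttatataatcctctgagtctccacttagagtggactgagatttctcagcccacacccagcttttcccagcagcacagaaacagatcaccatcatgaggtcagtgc
Ifit2, chr19:34550444-34550743, + strand: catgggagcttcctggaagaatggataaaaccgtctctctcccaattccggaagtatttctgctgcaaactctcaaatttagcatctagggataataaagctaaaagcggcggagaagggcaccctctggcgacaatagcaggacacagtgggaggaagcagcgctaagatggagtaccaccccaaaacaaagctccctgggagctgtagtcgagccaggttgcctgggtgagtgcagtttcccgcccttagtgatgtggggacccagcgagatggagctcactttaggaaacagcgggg
Ifit1 held 2 matches, at bases -104 to -95 and -85 to -76 from its start. Ifit3 held 2, at -156 to -147 and -122 to -113, and Ifit3b held 2, at -188 to -179 and -154 to -145. All 6 were read on the strand opposite to the gene. The window of Ifit2 shown held 0 matches, as did that of another of its annotated starts, at chr19:34550838-34551137. This says only that these letters are not in these windows. The gene spans of Ifit2, Ifit3 and Ifit3b given above begin upstream of the transcript starts used for the windows. Sequence before the first base of each span was searched only where a window covered it. Among all 32851 promoter windows of this length 3.44% held the core and 0.225% held it at 2 or more positions.

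**Figure D1:**
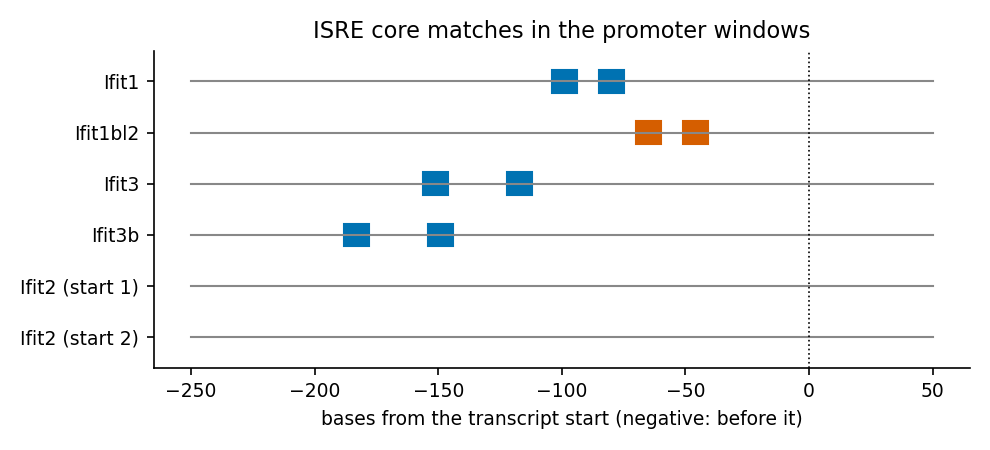
Positions of the ISRE core (GAAA, any 2 bases, GAAA; boxes) in promoter windows, in bases from the transcript start (dotted line), with blue for the strand opposite to the gene and orange for the same strand. Ifit1, Ifit3, Ifit3b and the Ifit1bl2 window that overlaps that of Ifit1 each hold 2 boxes, and neither window of Ifit2 holds any.

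The windows of Ifit3 and Ifit3b were near copies: 259 of 260 aligned bases were identical (99.6%), with the Ifit3b start annotated further downstream in the same sequence. The window of Ifit1 overlapped that of Ifit1bl2 by 245 bases. These genes are transcribed away from each other from transcript starts that lie, in these windows, 146 bases apart, and the ISRE matches of Ifit1 were also those of Ifit1bl2, at -70 to -61 and -51 to -42 from its own start. The window of another Ifit1bl2 start, at chr19:34629762-34630061, held 0 matches, and each of 2 windows of Ifit1bl1 held 1. The core TTCNNNGAA, the GAS element of interferon gamma responses, was looked for after the values were seen and was found in the Ifit2 window at -241 to -233 and in 8.30% of all windows. A pattern that can fold into a G-quadruplex was sought on either strand, 4 groups of 3 G with 1 to 7 bases between them. It was present in the windows of Ifit3 and Ifit3b on the strand opposite to the gene, at the long run of C printed above. It was absent from the windows of Ifit1 and Ifit2 and present in 18.5% of all windows. GC content of the members' windows was 49.3 to 53.0%, against a median of 52.7% (quartiles 45.7 and 61.7%) over all windows.

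The target of the antagomiR was looked for in the same transcripts. Mature miR-9-5p is encoded at Mir9-1 (chr3:88215613-88215635), Mir9-2 (chr13:83738821-83738843) and Mir9-3 (chr7:79505279-79505301), and is shown with its seed, bases 2 to 8, in capitals.
miR-9-5p: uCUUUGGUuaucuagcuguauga
The site that pairs with this seed, ACCAAAG, was absent from the GENCODE transcripts of Ifit1, Ifit2, Ifit3 and Ifit3b over their whole length. For Ifit2, Ifit3 and Ifit3b these were 3818, 1745 and 2000 nt long, shorter than the 3944, 1994 and 2009 nt of the transcripts counted. Sites that pair with only part of this seed were not looked for. It was present in 13.4% of the longest 3′ UTRs of 21173 genes and in 1319 of those of 8808 genes with a mean of 1 RPKM or more. Ifit1bl2 held 1 site in its 3′ UTR. This search was added after the values were seen.

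Ifit1 (NM_008331, 2634 nt) had 127 reads or 1.76 RPKM in Ctr, 643 reads or 16.6 RPKM in Mir9_LOF, 81 reads or 1.41 RPKM in Tgfb and 736 reads or 14.7 RPKM in Tgfb_Mir9_LOF. The libraries thus fell into a low pair without and a high pair with the miR-9 antagomiR, whose 95% Poisson intervals of counting error (1.47 to 2.09 and 1.12 to 1.75 RPKM against 15.3 to 17.9 and 13.6 to 15.8 RPKM) did not overlap. In bulk RNA a higher level in every cell and a larger share of expressing cells cannot be told apart. All intervals here cover counting error only and leave out the variation between cultures.

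Ifit3 (NM_010501, 1994 nt) had 131 reads or 2.40 RPKM in Ctr, 423 reads or 14.4 RPKM in Mir9_LOF, 44 reads or 1.01 RPKM in Tgfb and 591 reads or 15.6 RPKM in Tgfb_Mir9_LOF. Its copy Ifit3b (NM_001005858, 2009 nt) had 77 reads or 1.40 RPKM, 301 reads or 10.2 RPKM, 36 reads or 0.822 RPKM and 497 reads or 13.0 RPKM in the same order. Both genes showed the same low and high pairs of libraries as Ifit1, and in both the TGFB1 library with control antagomiR was the lowest.

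Ifit2 (NM_008332, 3944 nt) had 278 reads or 2.57 RPKM in Ctr, 106 reads or 1.83 RPKM in Mir9_LOF, 133 reads or 1.55 RPKM in Tgfb and 233 reads or 3.11 RPKM in Tgfb_Mir9_LOF. Its other transcript (NM_001355262, 3801 nt) shared most reads, with 2.42, 1.79, 1.47 and 2.93 RPKM. Ifit2 did not follow the split by antagomiR: its highest and lowest libraries were the TGFB1 libraries with and without it, and its whole range was 1.55 to 3.11 RPKM.

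**Figure D2:**
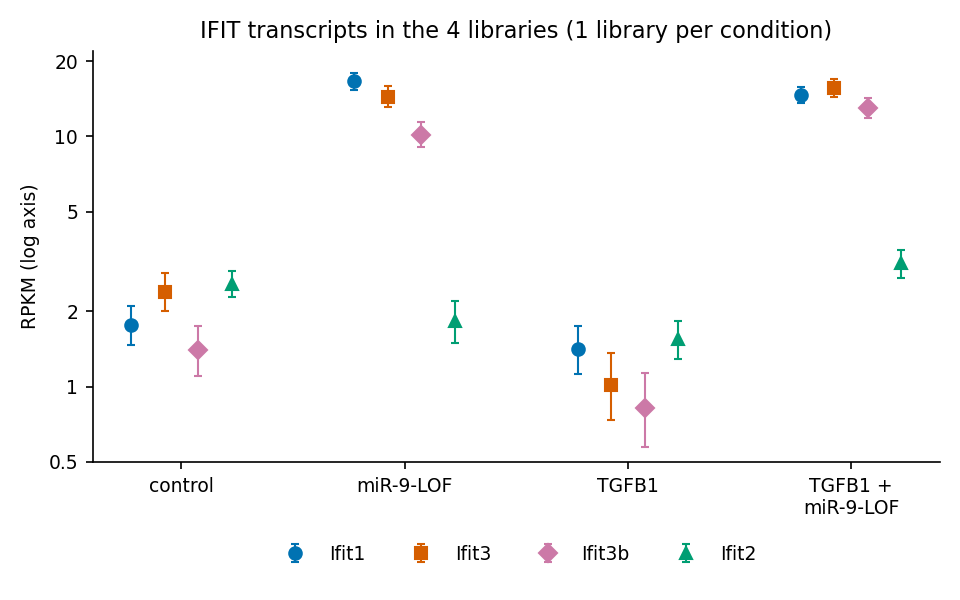
RPKM (log axis) of the 4 IFIT members in the 4 libraries, with bars for the 95% Poisson interval of the read count. Ifit1, Ifit3 and Ifit3b lie between 10.2 and 16.6 RPKM in the libraries with the miR-9 antagomiR and at 2.40 RPKM or less in the others, whereas Ifit2 stays between 1.55 and 3.11 RPKM.

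The order of the members changed between libraries. In Ctr it was Ifit2, Ifit3, Ifit1 and Ifit3b, where the intervals of each pair of neighbours overlapped (Ifit2 2.28 to 2.89, Ifit3 2.00 to 2.84, Ifit1 1.47 to 2.09, Ifit3b 1.10 to 1.75 RPKM). In Mir9_LOF it was Ifit1, Ifit3, Ifit3b and Ifit2, where Ifit1 and Ifit3 overlapped (15.3 to 17.9 and 13.1 to 15.9 RPKM) and the intervals of Ifit3b (9.06 to 11.4 RPKM) and Ifit2 (1.49 to 2.21 RPKM) each stood apart. The Tgfb library had the order Ifit2, Ifit1, Ifit3 and Ifit3b with overlapping neighbours. In Tgfb_Mir9_LOF the order was Ifit3, Ifit1, Ifit3b and Ifit2, with only Ifit2 (2.72 to 3.53 RPKM) apart from its neighbour. The 4 members summed to 8.12, 43.0, 4.79 and 46.4 RPKM in Ctr, Mir9_LOF, Tgfb and Tgfb_Mir9_LOF. Ifit2 made up 31.6% and 32.3% of this sum in the libraries with control antagomiR, and 4.25% and 6.70% in those with the miR-9 antagomiR.

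The first comparison addressed loss of miR-9 without TGFB1. Ifit1 was at 9.43 times its control level (7.78 to 11.5, exact binomial interval of the counts), Ifit3 at 6.01 times (4.93 to 7.37) and Ifit3b at 7.28 times (5.65 to 9.48). Ifit2 was at 0.710 times its control level (0.562 to 0.891). As log2 ratios of RPKM + 1, in which a low transcript shows less of its change, these were 2.67, 2.18, 2.22 and -0.34. A symbol was called higher or lower at a log2 ratio of 0.58 (1.49-fold) on that scale, the limit of the study, if its mean over the pair of libraries was 1 RPKM or more. By this limit 3 members were called higher and 0 lower, where 2.03% of 9291 symbols were called higher and 6.72% lower, and nothing is read from the members' count because their values were known when they were chosen. Ifit1, Ifit3b and Ifit3 held ranks 7, 10 and 13 from the highest, and Ifit2 rank 6831.

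The scale between libraries mattered for Ifit2. The median symbol differed by -0.17 in this comparison, and scaling the libraries in 7 other ways brought that median to between -0.03 and 0.05 and turned the split of calls from 189 higher and 624 lower to 339 to 473 higher and 127 to 208 lower. Ratios under 6 of these scalings, computed after the values were seen, were 0.804 to 0.857 for Ifit2, with intervals that included 1 in all 6. For Ifit1, Ifit3 and Ifit3b they were 10.7 to 11.4, 6.81 to 7.26 and 8.24 to 8.79, and all of their intervals excluded 1.

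The same loss of miR-9 was examined in cells that also received TGFB1. Ifit3 was at 15.4 times (11.3 to 21.4) and Ifit3b at 15.8 times (11.3 to 22.9) the level of the Tgfb library, and Ifit1 at 10.4 times (8.27 to 13.3). Here Ifit2 was higher too, at 2.01 times (1.62 to 2.50). The log2 ratios were 3.04, 2.94, 2.70 and 0.69, so all 4 members were called higher, where 2.06% of 9535 symbols were called higher and 1.48% lower (196 and 141 symbols, and 224 to 305 and 42 to 84 under the 7 other scalings). All 4 members passed the filter in each comparison, here Ifit3b through the library in which it was high, since it was at 0.822 RPKM in Tgfb. The ranks from the highest were 8 for Ifit3, 9 for Ifit3b, 10 for Ifit1 and 156 for Ifit2.

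**Figure D3:**
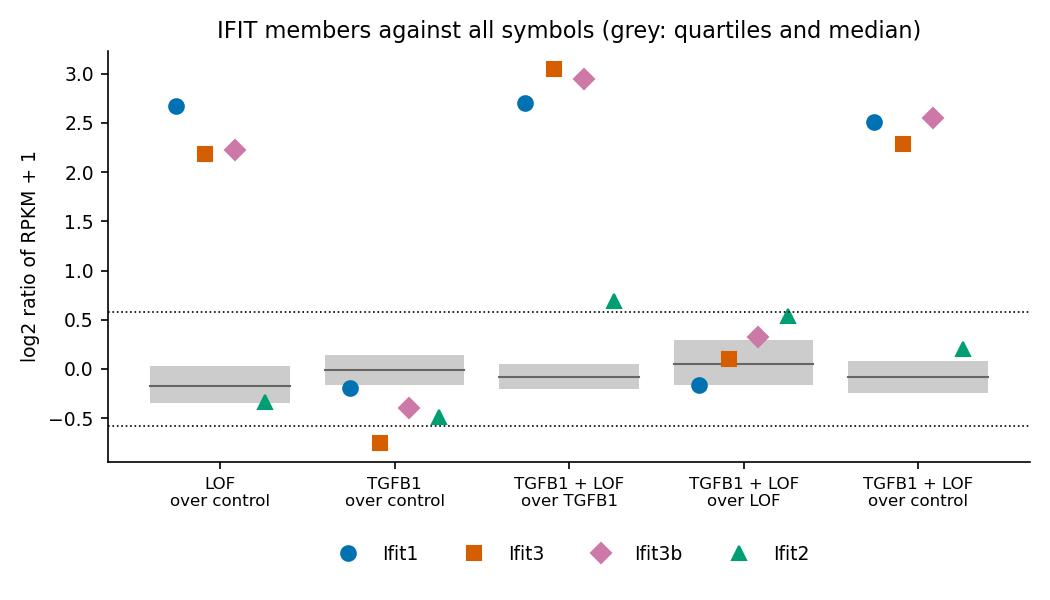
Differences between libraries on the log2(RPKM + 1) scale for the 4 members in 5 comparisons, with the quartiles (grey box) and median (line) of all symbols compared and the limits of 0.58 (dotted). Ifit1, Ifit3 and Ifit3b lie between 2.18 and 3.04 in each comparison that adds the miR-9 antagomiR, and Ifit2 lies at -0.34, 0.69 and 0.20.

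TGFB1 alone was set against the control. All 4 members were lower in the Tgfb library, at 0.422 times (0.293 to 0.598) for Ifit3, 0.588 times (0.384 to 0.884) for Ifit3b, 0.601 times (0.485 to 0.742) for Ifit2 and 0.802 times (0.599 to 1.07) for Ifit1, whose interval included 1. Only Ifit3 passed the limit, with a log2 ratio of -0.76 against -0.49 for Ifit2, -0.40 for Ifit3b and -0.19 for Ifit1. Called lower were 2.92% of 9527 symbols and called higher 2.68% (278 and 255 symbols, and 256 to 334 and 211 to 256 under the 7 other scalings). This call depended on the value added before taking logs, with 3 members called lower when 0.1 was added and 0 when 5 was added.

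With the miR-9 antagomiR present, Ifit1, Ifit3 and Ifit3b stayed between 10.2 and 16.6 RPKM whether or not TGFB1 was added. Over the Mir9_LOF library, the Tgfb_Mir9_LOF library had 1.70 times the level of Ifit2 (1.35 to 2.16), 1.28 times that of Ifit3b (1.11 to 1.48), 1.08 times that of Ifit3 (0.953 to 1.23) and 0.886 times that of Ifit1 (0.796 to 0.986). No member passed the limit, where 7.13% of 9345 symbols were called higher and 2.48% lower (666 and 232 symbols, and 382 to 450 and 322 to 447 under the 7 other scalings). The ratio of Ifit3 lay between 0.981 and 1.00 under the 6 other scalings, so that its direction was not settled.

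Both treatments together were then set against the control. Ifit3b was at 9.30 times, Ifit1 at 8.35 times, Ifit3 at 6.50 times and Ifit2 at 1.21 times (1.01 to 1.44) the control level. The first 3 were called higher, where 2.76% of 9541 symbols were called higher and 4.65% lower (263 and 444 symbols, and 303 to 405 and 238 to 337 under the 7 other scalings). The 5 comparisons share libraries, so they are not independent of each other.

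The members differed in how far the ratio for the miR-9 antagomiR depended on TGFB1. On the log2 scale of RPKM, the ratio with TGFB1 minus that without it was 1.50 for Ifit2 (1.05 to 1.95), 1.36 for Ifit3 (0.83 to 1.88), 1.12 for Ifit3b (0.51 to 1.73) and 0.14 for Ifit1 (-0.29 to 0.57), with 95% intervals from the Poisson variance of the 4 counts. Over 9463 symbols the median of this difference was 0.10 (quartiles -0.11 and 0.35), and 11.7% were at 0.58 or more. For Ifit3 and Ifit3b the larger ratio with TGFB1 went with a lower level in the Tgfb library, while their levels in the libraries with the miR-9 antagomiR were 14.4 and 15.6 RPKM for Ifit3 and 10.2 and 13.0 RPKM for Ifit3b. For Ifit2 both libraries moved, from 2.57 to 1.55 RPKM with the control antagomiR and from 1.83 to 3.11 RPKM with the miR-9 antagomiR.

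Reads of Ifit3 and Ifit3b could not be fully told apart. Their coding sequences were identical at 1201 of 1212 bases (99.1%), and 53.5% of the 45-base windows of Ifit3, the length that reads had after trimming, also occurred in Ifit3b. Summed, the pair had 208 reads in Ctr and 724 in Mir9_LOF, a ratio of 6.48 (5.55 to 7.60), and 80 reads in Tgfb and 1088 in Tgfb_Mir9_LOF, a ratio of 15.6 (12.4 to 19.8). The level of Ifit3 relative to Ifit3b was 1.71 (1.28 to 2.30) in Ctr, 1.42 (1.22 to 1.65) in Mir9_LOF, 1.23 (0.775 to 1.97) in Tgfb and 1.20 (1.06 to 1.35) in Tgfb_Mir9_LOF, with intervals that overlapped between all libraries. By contrast, Ifit2 shared no 45-base window with any other gene, and Ifit1 shared 7.73%, nearly all with the Ifit1-like genes. Outside the Ifit3 pair, the members' coding sequences were identical at 69.4 to 71.9% of aligned bases.

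Ifit1bl2, the Ifit1-like gene that shares the promoter region of Ifit1, was at a far lower level but had the same low and high libraries. Its transcript NM_001362130 (3214 nt) had 9 reads in Ctr, 41 in Mir9_LOF, 4 in Tgfb and 50 in Tgfb_Mir9_LOF, or 0.102, 0.867, 0.0571 and 0.818 RPKM. This gave 8.48 times the control level with the miR-9 antagomiR (4.06 to 19.9) and 14.3 times with TGFB1 present (5.26 to 54.6). With a mean under 1 RPKM it entered no count of calls, and 10.4% of the 45-base windows of its other transcript occur in other genes, so that its reads and those of Ifit1 could not be fully told apart.

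The genes that surround the cluster were compared in the same libraries. Of the 5 measured genes on either side 8 passed the filter in Mir9_LOF over Ctr, of which 0 were called higher and 2, Acta2 and Ankrd1, lower, where 2.03% of all symbols were called higher and 6.72% lower. Under 2 of the 7 other scalings Ankrd1 was not called. On the side of Ifit2, Lipa, the lysosomal acid lipase, lies 23.1 kb from the cluster and was at 11.6 RPKM in Ctr and 13.5 RPKM in Mir9_LOF, 1.16 times. Ch25h, which makes the antiviral sterol 25-hydroxycholesterol and responds to interferon in macrophages, had only 23, 11, 11 and 22 reads in Ctr, Mir9_LOF, Tgfb and Tgfb_Mir9_LOF. Acta2, the smooth muscle actin of myofibroblasts, lies 295 kb away and was at 360 RPKM in Ctr and 164 RPKM in Mir9_LOF (0.457 times). On the side of Ifit1, Pank1 lies 157 kb away, Kif20b 272 kb, Rpp30 1434 kb, Ankrd1 1462 kb and Pcgf5 1698 kb. In this order they were at 1.09, 0.689, 0.652, 0.556 and 0.750 times their control level. On the side of Ifit2, Fas and Stambpl1 were at 0.776 and 0.943 times.

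**Figure D4:**
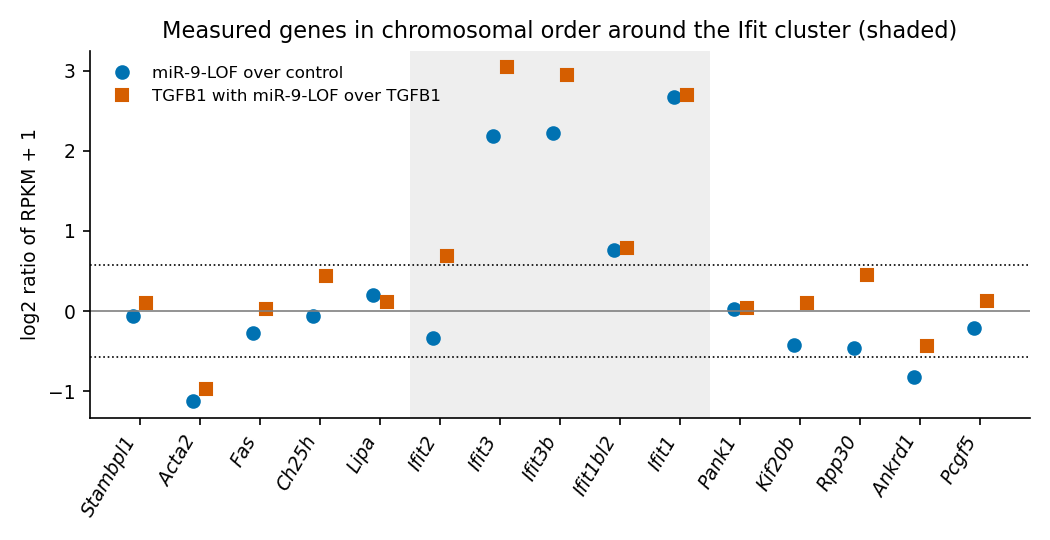
Log2 ratio of RPKM + 1 for measured genes in their order along chromosome 19, with the Ifit cluster shaded, for miR-9-LOF over control (circles) and for TGFB1 with miR-9-LOF over TGFB1 (squares). Within the shading Ifit3, Ifit3b and Ifit1 lie between 2.18 and 3.04, and outside it no gene lies above 0.58.

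The pathway that leads to IFIT genes was followed from its sensors to its effectors, in lists that were drawn up with earlier results of these data known. The counts below stand beside 2.03% of all symbols called higher and 6.72% lower in Mir9_LOF over Ctr, and 2.06% and 1.48% with TGFB1 present. Of 17 sensors and adaptors of foreign nucleic acid 10 could be compared in Mir9_LOF over Ctr, and 2 were called higher with a median of -0.01 (all symbols -0.17). These were Zbp1, a sensor of Z-form nucleic acid, at 9.08 and 29.3 RPKM in Ctr and Mir9_LOF, and Dhx58, the RIG-I-like receptor LGP2, at 1.14 and 4.68 RPKM. Tbk1, the kinase that phosphorylates IRF3, was at 3.49 and 2.24 RPKM (0.640 times, not called), and Ddx58, which encodes RIG-I, at 9.88 and 12.7 RPKM (1.28 times, not called). With TGFB1 present 4 of 10 were called higher, Eif2ak2 (PKR) and Ddx58 joining Zbp1 and Dhx58. Dhx58, at 0.517 RPKM in Tgfb, passed the filter there only through the library in which it was high.

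None of 20 interferon genes was among the rows analysed, and the table held only transcripts with 21 or more reads over the 4 libraries. The receptors and JAK kinases showed no call: 8 of 9 could be compared, with a median of -0.31 in Mir9_LOF over Ctr and -0.21 with TGFB1 present, where the medians of all symbols were -0.17 and -0.08. Under the 7 other scalings the list's median was -0.15 to -0.07 and -0.14 to -0.02, and still 0 of 8 were called. Ifnar1, a chain of the type I interferon receptor, was at 5.45 and 4.39 RPKM in Ctr and Mir9_LOF, and Jak1 at 10.5 and 7.47 RPKM. Il10rb, a chain of the interferon lambda receptor, was at 6.82 and 4.43 RPKM.

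Among the transcription factors that bind ISREs, 3 of 8 were called higher without TGFB1 and 4 of 8 with it, and 0 were lower in either. Irf7, which amplifies the interferon response, was at 3.79 RPKM in Ctr and 18.6 RPKM in Mir9_LOF (4.91 times, 4.13 to 5.86), and at 2.96 and 15.4 RPKM with TGFB1. Stat2 and Irf9, of the ISGF3 complex, had smaller ratios: Stat2 was at 7.38 and 12.3 RPKM in Ctr and Mir9_LOF (1.66 times) and Irf9 at 7.63 and 11.7 RPKM (1.54 times, log2 ratio 0.56 and so just not called). Under each of the 7 other scalings, applied to this list after the values were seen, Irf9 had a log2 ratio of 0.72 to 0.81, and 4 of 8 were called higher without TGFB1. Irf3 was at 5.76 and 5.92 RPKM, 1.03 times (0.850 to 1.24).

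Inhibitors and modifiers of interferon signalling had 2 of 7 called higher and 0 lower. Isg15, a ubiquitin-like protein, was at 9.36 RPKM in Ctr and 38.9 RPKM in Mir9_LOF, and Usp18, the protease that removes ISG15 and restrains the type I receptor, at 2.95 and 11.8 RPKM. Socs3, an inhibitor of JAK kinases, was called lower in Tgfb over Ctr, at 8.28 against 17.8 RPKM.

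The oligoadenylate synthetase group, antiviral enzymes that sense double-stranded RNA, had 6 of 9 measured genes compared in Mir9_LOF over Ctr and all 6 were called higher, with a median of 1.56. Of these 3 were under 1 RPKM in the control library and passed the filter only through the library in which they were high, so the median describes those genes alone. Oas1a was at 1.36 and 7.38 RPKM, Oasl2 at 2.54 and 9.47 RPKM, Oas2 at 2.13 and 8.29 RPKM, and Oas1g at 0.802 and 4.32 RPKM.

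Of 27 other interferon-induced effectors 20 could be compared without TGFB1 and 11 were called higher, and 15 of 21 with it, and 0 were called lower in either. Of those compared, 2 without and 3 with TGFB1 were under 1 RPKM in the library without the miR-9 antagomiR and passed the filter only through the library in which they were high, Ifi44 among them. Under the 7 other scalings 13 to 15 were called higher without TGFB1 and 16 to 19 with it. Igtp, an immunity-related GTPase, was at 5.30 RPKM in Ctr and 17.1 RPKM in Mir9_LOF, Ifi44 at 0.448 and 2.62 RPKM, Bst2 (tetherin) at 21.7 and 53.0 RPKM, and Rtp4 at 1.60 and 5.20 RPKM. Of the genes under the filter, Rsad2 (viperin) had 5 reads in Ctr and 51 in Mir9_LOF, 3 in Tgfb and 66 in Tgfb_Mir9_LOF. The higher levels were not shared by the whole list, since Ifi27 was at 25.3 and 16.8 RPKM and Ifitm2 at 72.2 and 60.8 RPKM. Over all 34 measured genes of these effector lists, with no filter, 30 were higher in Mir9_LOF than in Ctr and 33 in Tgfb_Mir9_LOF than in Tgfb, with median ratios of 2.29 and 3.05. For all symbols that passed the filter the median log2 ratios of RPKM + 1 were -0.17 and -0.08. The share of all symbols that were higher was not counted, so nothing is read from these counts.

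The machinery that IFIT proteins act on served as a further list. Of 21 genes for cap formation and subunits of eIF3, an initiation factor known to be bound by IFIT1 and IFIT2, 17 could be compared and 1, Eif3a, was called lower in Mir9_LOF over Ctr (51.2 and 31.7 RPKM). This was near the share of all symbols called lower, and under the 7 other scalings Eif3a had a log2 ratio of -0.50 to -0.41 and 0 genes were called. The median of this list was -0.01. With TGFB1 present 0 of 18 were called. Cmtr1, which adds the 2′-O methyl group that IFIT1 recognises as absent, was at 1.16 times its control level in Mir9_LOF.

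**Figure D5:**
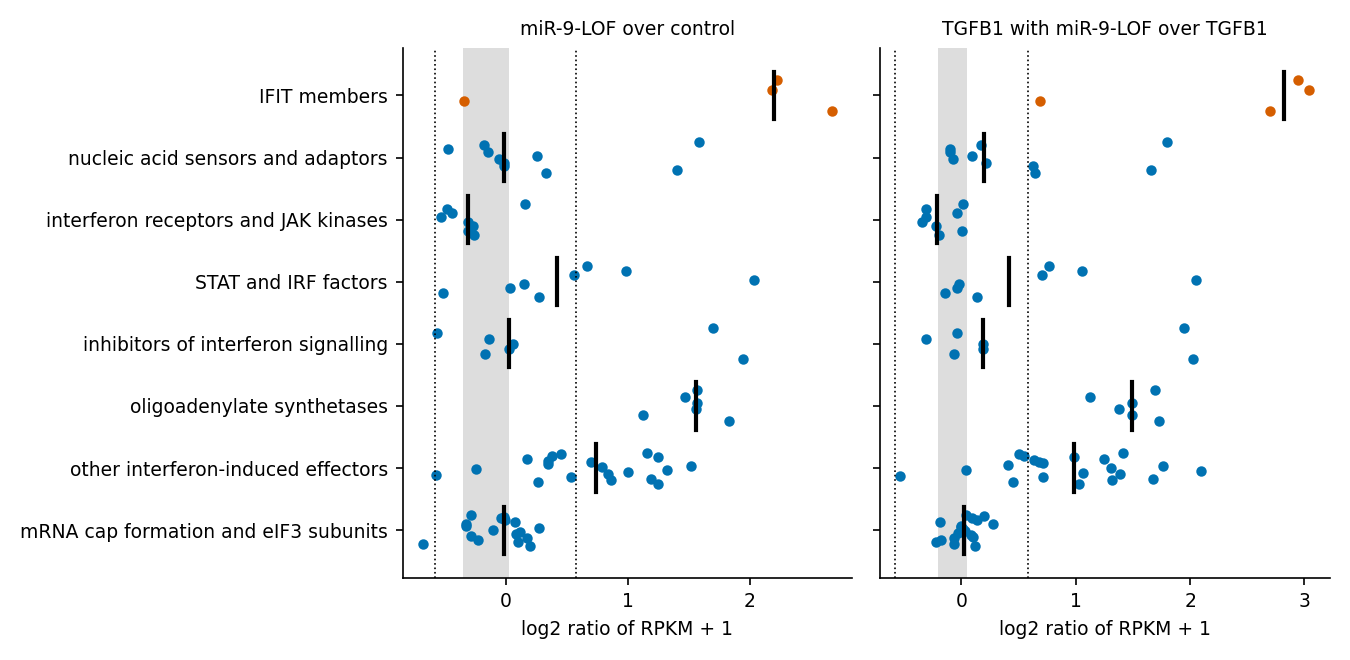
Log2 ratio of RPKM + 1 for each compared gene of the IFIT family (orange) and of 7 further lists (blue), with the list median (black bar), the limits of 0.58 (dotted) and the quartiles of all symbols (grey). The oligoadenylate synthetases lie wholly to the right of the upper limit in both panels, and the receptors and JAK kinases lie between the limits.

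The genes whose 4 levels were most like the mean of the family were found by the Euclidean distance between log2(RPKM + 1) values centred on each gene's mean, over 4 libraries and 9467 symbols. The nearest 12 were Isg15 (distance 0.296), Usp18, Irf7, Zbp1, Igtp, Lars2, Cxcl10, Oas1a, Ifi44, Nqo1, Oasl2 and Snord37. Of these Lars2 encodes a mitochondrial leucyl-tRNA synthetase and was 1 of the 3 transcripts with the largest shares of reads, Nqo1 is a quinone reductase of the oxidative stress response, and Snord37 rested on 4 to 13 reads per library. That mean is a profile no member has, because Ifit2 differed from the rest. To the mean of Ifit1, Ifit3 and Ifit3b alone, taken after the values were seen, the nearest was Prl2c5, a gene of the prolactin family with counts of 23 in Ctr, 128 in Mir9_LOF, 8 in Tgfb and 121 in Tgfb_Mir9_LOF, and the next Mir6236 (distance 0.546), 1 of the 3 transcripts with the largest shares of reads, followed by Irf7, Cxcl10, Isg15 and Prl2c2. Within the family, Ifit3 and Ifit3b were nearest to each other (0.299), Ifit1 lay 0.389 and 0.446 from them, and Ifit2 lay 2.41 to 2.57 from the others.

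Because Ifit2 stood so far from the rest, its own nearest genes were looked up after the values were seen. They were Gvin-ps6 (distance 0.0866), Gvin1 and Gvin2 (0.107), which are very large interferon-inducible GTPases or their pseudogene, followed by Tefm. Gvin1 had 841 reads in Ctr, 366 in Mir9_LOF, 448 in Tgfb and 786 in Tgfb_Mir9_LOF, or 3.47, 2.81, 2.32 and 4.67 RPKM. Gvin2 had the same 4 counts, so the pair is 1 measurement. With only 4 values per gene such likeness is easily met, and it was not tested.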

How the data were processed

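Total RNA of 4 MLg libraries was analysed, with groups and ribosomal RNA depletion read from the sample titles. Single-end reads were trimmed by the authors with Trimmomatic 0.36 (crop 60, head crop 15), placed on mm10 by Bowtie2, and assigned to RefSeq exons by HOMER. The sources used here do not give the Bowtie2 version or the handling of reads that match several places. The deposited counts are unnormalised and given per transcript, and isoforms that share an exon share its reads. RPKM was computed by the authors in edgeR from length and library total and deposited with 1 added, which was taken off here. Deposited log2 columns hold the authors' ratios to the control library and were not used. A deposited sum of the RPKM columns (a score here) was not used. The deposited transcript lengths in nucleotides were used for the counts behind each RPKM.

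The members and gene lists were chosen with earlier results of these data known. Symbols with a mean of 1 RPKM or more over a pair of libraries were compared, and called at a log2 ratio of 0.58. Genes were named by a rule: all members and other genes of the cluster, up to 4 genes per list with the largest difference in miR-9-LOF over control, any gene of a list of 9 or fewer, the 12 nearest profiles and the 5 measured neighbours on each side. Eif2ak2, Ddx58, Rsad2, Ifi27, Ifitm2, Cmtr1, Prl2c5, Mir6236, Prl2c2, Tefm and the Gvin genes were named after their values were seen. Depth was 14719887 to 27416665 reads per library by the totals behind the RPKM values. Ratios carry exact 95% binomial intervals and levels Poisson intervals. The ratio script was tested on simulated data. Alternatives used edgeR 4.0.16, DESeq2 1.42.0 and Python 3.11.15 with scipy 1.17.1 for scaling, other added values, limits, filters and rows. Promoters and miR-9-5p came from RefSeq (GRCm38.p6), and transcripts for sequence comparison from GENCODE M21 (GRCm38). Protein sequences were not used here.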

Additional observations from a re-analysis of the deposited data

Results flagged for a closer look

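For 2 members the ratio for a treatment lay on opposite sides of 1 depending on the other treatment, with both counting intervals off 1. In each case the difference was not tested, since each condition had 1 library. Ifit2 was at 0.710 times the control level with the miR-9 antagomiR alone but at 2.01 times with TGFB1 present, and under 6 other scalings of the library totals the interval of the first ratio included 1. TGFB1 took Ifit2 to 0.601 times with the control antagomiR and to 1.70 times with the miR-9 antagomiR. For Ifit3b the corresponding ratios for TGFB1 were 0.588 and 1.28, and under the same scalings the latter was 1.16 to 1.19.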

How the results depend on the processing

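No paired analysis was possible because each condition had 1 library, and for the same reason no replicate could be left out. Under 7 other scalings between libraries every count of called IFIT members was unchanged in all 5 comparisons, and under the 14 alternatives 175 of the 182 counts and differences of the members were unchanged or moved by little. The 7 that moved were these. With 0.1 added to RPKM in place of 1, 3 members were called lower in TGFB1 over control (1 as reported) and 1 was called higher when TGFB1 was added to miR-9-LOF (0 as reported). With 5 added, or with a log2 limit of 1, 0 members were called lower in TGFB1 over control. With 5 added, the difference between the ratios for the miR-9 antagomiR with and without TGFB1 shrank to 0.46 for Ifit2, 0.38 for Ifit3 and 0.38 for Ifit3b. A larger added value shrinks ratios of low transcripts by its construction. With a mean of 5 RPKM required, members under it were not compared. A further change was among those taken as little. For the miR-9 antagomiR with TGFB1 present, the call of all 4 members as higher did not hold under every alternative. Ifit2, at a log2 ratio of 0.69 as reported, was not called with a log2 limit of 1 or with 5 added. Of single-member log2 ratios, 253 of 272 stayed within their counting interval and 19 moved beyond it, all by another added value. Precision was limited by the 36 to 133 reads of the members in the Tgfb library.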
